A study of Mus musculus with 6 samples.

Results

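The genes described here are the 59 listed genes of DNA replication and of entry into S phase, chosen by symbol from the 21878 gene symbols of the deposited table, and all 59 were present and passed the filter on low values. They cover origin licensing and firing, the replicative polymerases, the sliding clamp and its loader, the supply of nucleotides, the cyclins and kinases of the G1/S transition, and the E2F transcription factors. RNA was measured in HT22 cells, an immortalized mouse hippocampal line that divides in culture, as 3 control libraries and 3 libraries of cells exposed to Al, given as aluminum maltolate at 120 μmol/L for 24 h. Both groups are the same line, with no allele or transgene named in the labels. The libraries are the inputs of an m6A immunoprecipitation experiment made from fragmented RNA. The 24 h and the control are those of the general treatment protocol, in which control cells were kept in DMEM medium and a maltol group stood apart; no maltol library was analysed here. The labels mark the 3 Al libraries with the letter M only and do not say what it stands for; they are called Al here by inference, because the design text names a control and an Al-treated group and no other. The 3 libraries of a group are called biological replicates in the design text, without saying whether they were separate cultures.

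Before S phase, the origin recognition complex together with CDC6 and CDT1 loads the MCM2-7 helicase onto DNA. Cyclin-dependent kinases then activate the helicase with CDC45 and the GINS complex, polymerases copy both strands around the PCNA clamp, and E2F factors drive the transcription of many of these genes once D and E cyclins have released them from the retinoblastoma proteins. A hippocampal neuron in the brain has left this cycle, whereas a cell line such as HT22 keeps it running.

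The control libraries held 37768842, 43091824 and 44220124 reads on genes and the Al libraries 26487603, 21707504 and 20973691, as recovered from the steps of the FPKM values. The 50 highest genes took 18.0 to 19.4% of the summed FPKM in control and 30.0 to 32.5% in Al. Levels are therefore given as scaled FPKM, which is FPKM (fragments per kilobase of transcript, set against the library's total) divided by a size factor. The size factor centres the libraries on the median gene and leaves the share of the 50 highest genes within a library as it was. Whether the median gene was unchanged was not tested. Of 10 neuronal markers, 2 exceeded a mean of 1 FPKM (Tubb3 and Eno2), Nefm and Snap25 were listed at 0 in all 6 libraries, and the summed scaled FPKM was 6.49 to 8.11 in control and 4.79 to 8.08 in Al. Tubb3 and Eno2 had log2 fold changes of -0.19 and -0.38 (limma adjusted P = 0.404 and 0.422) without a call. All 5 mesenchymal markers were expressed, with sums, made up almost wholly of Col1a1 and Col1a2, of 1757 to 2762 scaled FPKM in control and 3155 to 4442 in Al, or 2055 to 3259 and 2559 to 3549 FPKM as deposited, which overlap. Thy1 and Col1a1 were called higher (log2 fold changes 1.42 and 0.92), and Acta2 and Pdgfrb were at -0.94 and -0.66 without a call, so the fold changes of the list had both signs. The part of these cell-type levels in the results below was not tested. The members were well covered, with 26 to 21619 reads per gene and library, and only Orc5 and Rpa3 fell below 100 reads in any library.

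In Al-exposed cells the replication genes did not move together. Of the 59 genes, 16 were called higher, 13 were called lower and 30 were not called, with a call requiring a limma P under 0.05 before adjustment and a log2 fold change beyond 0.58 in either direction. These are 27.1% and 22.0% of the members. Over all 12889 tested genes, 26.2% were called higher and 24.4% lower, so the members were called at close to the background rate. With FPKM as deposited 10 members would be called higher (background 14.0%) and 24 lower (42.0%). With libraries scaled to the same sum the counts would be 5 (9.31%) and 35 (53.1%), and with quantile normalization 12 (22.0%) and 19 (24.1%). Directions below are those with size factors. Of the genes called higher, Mcm4, Mcm5, Pcna, Rfc4 and Pold2 lost their call in each of these other scalings, Ccnd1 lost it in the first pair of them, and E2f7, Gins3, Mcm10, Orc4 and Orc6 lost it when libraries were scaled to the same sum. Genes called lower that were not so with size factors were Cdt1, Cdc45, Gins2, Gins4, Rpa3, Prim2, Pole, Dut, Uhrf1, Ccne1 and E2f1 with FPKM as deposited, the same 11 and Mcm2, Mcm6, Orc3, Gins1, Rfc3, Pola1, Lig1, Ccne2, Ccnd3, Cdk2 and Cdk4 with the same sum, and Cdt1, Gins2, Pole, Dut, Uhrf1 and Cdk4 with quantile normalization. With size factors the median log2 fold change of the members was -0.02, against 0.03 over all tested genes, and their spread was an SD of 0.857 against 1.02. Each of the 29 called members also had an adjusted P under 0.05 (limma, Benjamini-Hochberg over all tested genes).

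The largest increases were in Cdc6, Fen1, Orc1, Rpa2 and Mcm3, and the largest decreases were in Pole2, Tk1, Cdk6, Ccnd2 and Orc5. Within the MCM helicase, the origin recognition complex, the clamp loader and its clamp, the polymerases and the D cyclin group, some members were called higher and others lower with size factors. Which groups were mixed depended on the scaling. With FPKM as deposited and with the same sum, no gene of the clamp and loader, polymerase or D cyclin groups was called higher. Cdc6 and Cdt1, and Rpa2 and Rpa3, were then called in opposite directions. After scaling by size factors, control and Al libraries did not overlap in 45 of the 59 members (76.3%, against 68.1% of tested genes). In 23 of these Al lay wholly above (background 35.1%) and in 22 wholly below (background 33.1%). As deposited, Mcm2, Rpa1 and Tyms moved from wholly above to wholly below control. Pcna, Rfc4, Gmnn, Rrm1, E2f3 and E2f8 went from wholly above to overlapping. Mcm6, Orc3, Cdt1, Cdc45, Gins1, Pola1, Lig1, Ccnd3, Cdk2 and Cdk4 went from overlapping to wholly below. A bulk measurement cannot tell a change in the share of cells in S phase from a change in RNA per cell.

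**Figure D1:**
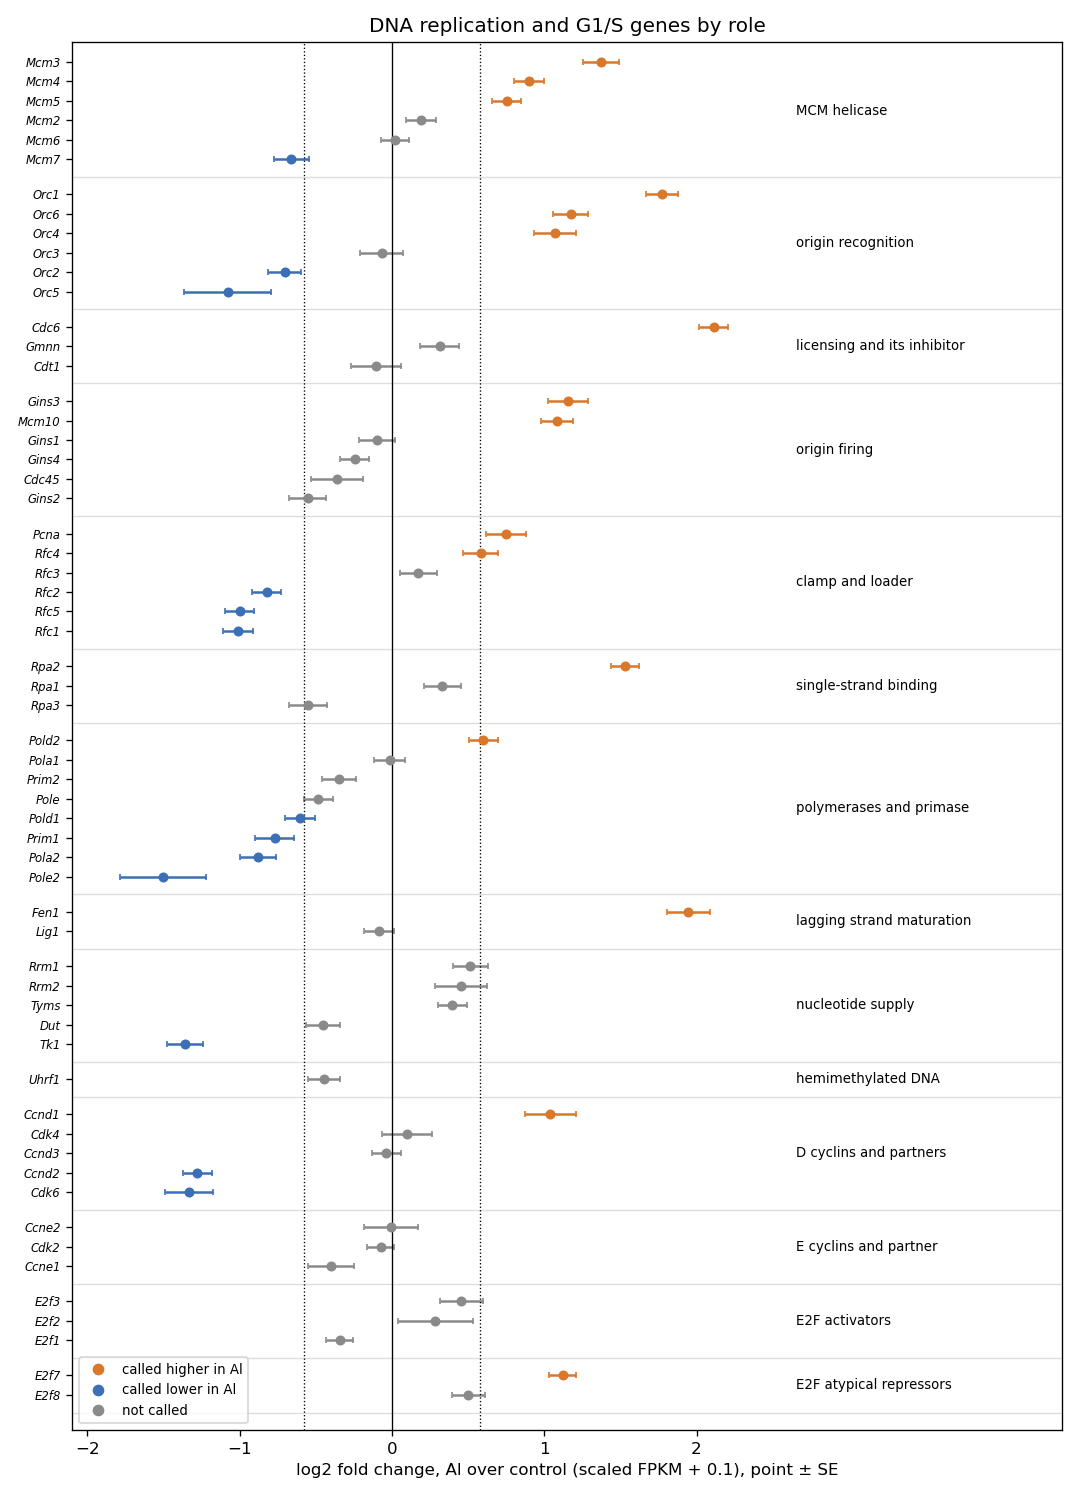
Log2 fold change of scaled FPKM (Al over control, pseudocount 0.1) for each of the 59 genes, grouped by role, with points for the estimate, bars for ± 1 SE of the limma fit and dotted lines at ± 0.58. Orange points (16) were called higher and blue points (13) lower with size factors, and both colours occur within 5 of the 14 role groups. Which groups are mixed depends on the scaling.

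The promoters of a few members are printed here because many genes of this class carry an E2F site near the start of transcription. They were chosen after their values were seen: Cdc6 and Mcm3 among the members called higher, Mcm7 and Pole2 among those called lower, 2 subunits of the same helicase among them. Each sequence runs 5′ to 3′ on the gene's strand from 250 bases before to 50 bases after the RefSeq start (GRCm38.p6), and capitals mark the E2F core on either strand, with matches that overlap run together. The Cdc6 promoter lies at chr11:98907901-98908200 on the plus strand, Mcm3 at chr1:20820263-20820562 on the minus strand, Mcm7 at chr5:138171834-138172133 on the minus strand and Pole2 at chr12:69228141-69228440 on the minus strand.
Cdc6: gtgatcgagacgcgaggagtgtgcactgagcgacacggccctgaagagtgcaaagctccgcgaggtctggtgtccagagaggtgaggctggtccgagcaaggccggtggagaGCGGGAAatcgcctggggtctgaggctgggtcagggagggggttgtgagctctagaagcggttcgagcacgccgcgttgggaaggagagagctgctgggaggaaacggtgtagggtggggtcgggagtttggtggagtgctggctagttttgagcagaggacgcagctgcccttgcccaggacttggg
Mcm3: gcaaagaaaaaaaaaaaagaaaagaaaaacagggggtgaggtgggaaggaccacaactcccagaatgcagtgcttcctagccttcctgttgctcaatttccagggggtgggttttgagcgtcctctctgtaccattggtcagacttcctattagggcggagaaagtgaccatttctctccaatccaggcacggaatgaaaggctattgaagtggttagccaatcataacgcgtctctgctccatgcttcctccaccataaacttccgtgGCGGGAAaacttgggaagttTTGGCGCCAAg
Mcm7: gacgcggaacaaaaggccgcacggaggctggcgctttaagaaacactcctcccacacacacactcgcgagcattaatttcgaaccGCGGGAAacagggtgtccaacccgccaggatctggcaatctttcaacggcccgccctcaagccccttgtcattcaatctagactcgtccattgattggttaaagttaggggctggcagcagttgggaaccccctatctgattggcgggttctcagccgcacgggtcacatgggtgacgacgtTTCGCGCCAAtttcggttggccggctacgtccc
Pole2: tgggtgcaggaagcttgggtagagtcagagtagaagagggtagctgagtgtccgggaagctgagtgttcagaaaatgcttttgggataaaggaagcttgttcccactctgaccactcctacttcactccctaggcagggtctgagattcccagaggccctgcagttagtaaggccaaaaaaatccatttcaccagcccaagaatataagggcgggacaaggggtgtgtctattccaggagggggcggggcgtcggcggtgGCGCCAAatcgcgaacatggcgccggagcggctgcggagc

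The E2F core was searched on both strands as TTNNCGC, in which each N stood for C or G. Its first base on the gene's strand was at position -138 in Cdc6, at 20, 40 and 43 in Mcm3, at -165, 18 and 21 in Mcm7 and at 11 in Pole2, counted with the first transcribed base as 1. Both a gene that rose and a gene that fell thus held the same letters near the start. Mcm3 and Mcm7 each held 3 matches in the windows shown, a pair of them overlapping on opposite strands. Mcm7 has another RefSeq window, chr5:138171217-138171516, not shown, with 1 match at -113. The Cdc6 and Mcm7 windows shown lie inside the GENCODE spans given below for these genes.

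Of the 59 members, 48 had an entry in the promoter table, with 60 promoter windows between them. A gene was counted if any of its windows held the letters. The E2F core was held by 29 of the 48 (60.4%). The share was 18.8% over the 9785 tested genes with an entry and 10.9% over all 27025 genes in the promoter table. By call, the core was in 10 of 14 genes called higher (71.4%), 5 of 11 called lower (45.5%) and 14 of 23 not called (60.9%). The CCAAT box, a common promoter element read as CCAAT on both strands, was in 62.5% of members and 43.3% of tested genes with an entry. The letters TTTGAA of the CHR element, which is known from mitotic genes, were in 16.7% and 14.4%. These counts describe letters in a window, with no test, and say nothing about binding.

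The MCM2-7 helicase unwinds DNA at the fork as a ring of 6 different proteins in equal number, and its genes split. Mcm3, Mcm4 and Mcm5 rose, Mcm7 fell, and Mcm2 and Mcm6 were not called; with FPKM as deposited, the same sum and quantile normalization Mcm4 (0.41, 0.11 and 0.38) and Mcm5 (0.26, -0.034 and 0.21) were not called higher. Mcm3 (GRCm38 chr1:20802968-20820312, minus strand; positions of other genes are on the same build) was at a scaled FPKM of 135, 131 and 144 in control and 348, 366 and 347 in Al, a 2.59-fold difference (log2 fold change 1.37 ± 0.12 (SE), limma adjusted P = 3.14e-05). No control library came near the Al libraries, and the 3 values of each group lay close together.

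Mcm4 was at 62.6, 61.2 and 59.9 in control and 121, 116 and 106 in Al (log2 fold change 0.90 ± 0.10 (SE), limma adjusted P = 9.86e-05). In Mcm5 the values were 66, 68.5 and 64.9 in control and 107, 110.5 and 119 in Al (log2 fold change 0.75 ± 0.10 (SE), limma adjusted P = 2.31e-04). Mcm7 (chr5:138164583-138172422, minus strand) went the other way, from 93.5, 99 and 102 in control to 57.4, 57.9 and 71.6 in Al (log2 fold change -0.66 ± 0.12 (SE), limma adjusted P = 0.00125), with Al 3 nearest to the control range. The Mcm7 transcript is 97.7% identical over 2152 bases to the processed pseudogene Gm5487, so reads could have been shared between them.

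With size factors Mcm2 and Mcm6 stood between these extremes. Mcm2 was at 103, 103 and 97.8 in control and 113, 116 and 119 in Al (log2 fold change 0.19 ± 0.10 (SE), limma adjusted P = 0.12), and Mcm6 at 65.3, 66.1 and 62.2 in control and 63.1, 65.1 and 67.7 in Al (log2 fold change 0.017 ± 0.091 (SE), limma adjusted P = 0.879), with overlapping groups in Mcm6. In the other 3 scalings both had negative fold changes, of -0.30, -0.60 and -0.40 in Mcm2 and -0.47, -0.77 and -0.45 in Mcm6, and both were called lower with the same sum. The Al libraries of Mcm2 lay wholly above control after scaling by size factors and wholly below as deposited. As a share of the summed FPKM of the 6 subunits, which needs no scaling between libraries, Mcm3 made up 25.8% ± 1.17 in control and 42.9% ± 1.13 in Al (SD, n = 3 each). Mcm7 made up 18.6% ± 0.718 in control and 7.56% ± 0.925 in Al (SD, n = 3 each). The share of Mcm6 was 12.2% ± 0.417 in control and 7.93% ± 0.199 in Al (SD, n = 3 each). Within a library the helicase genes were therefore in a more unequal ratio after Al than in control.

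**Figure D2:**
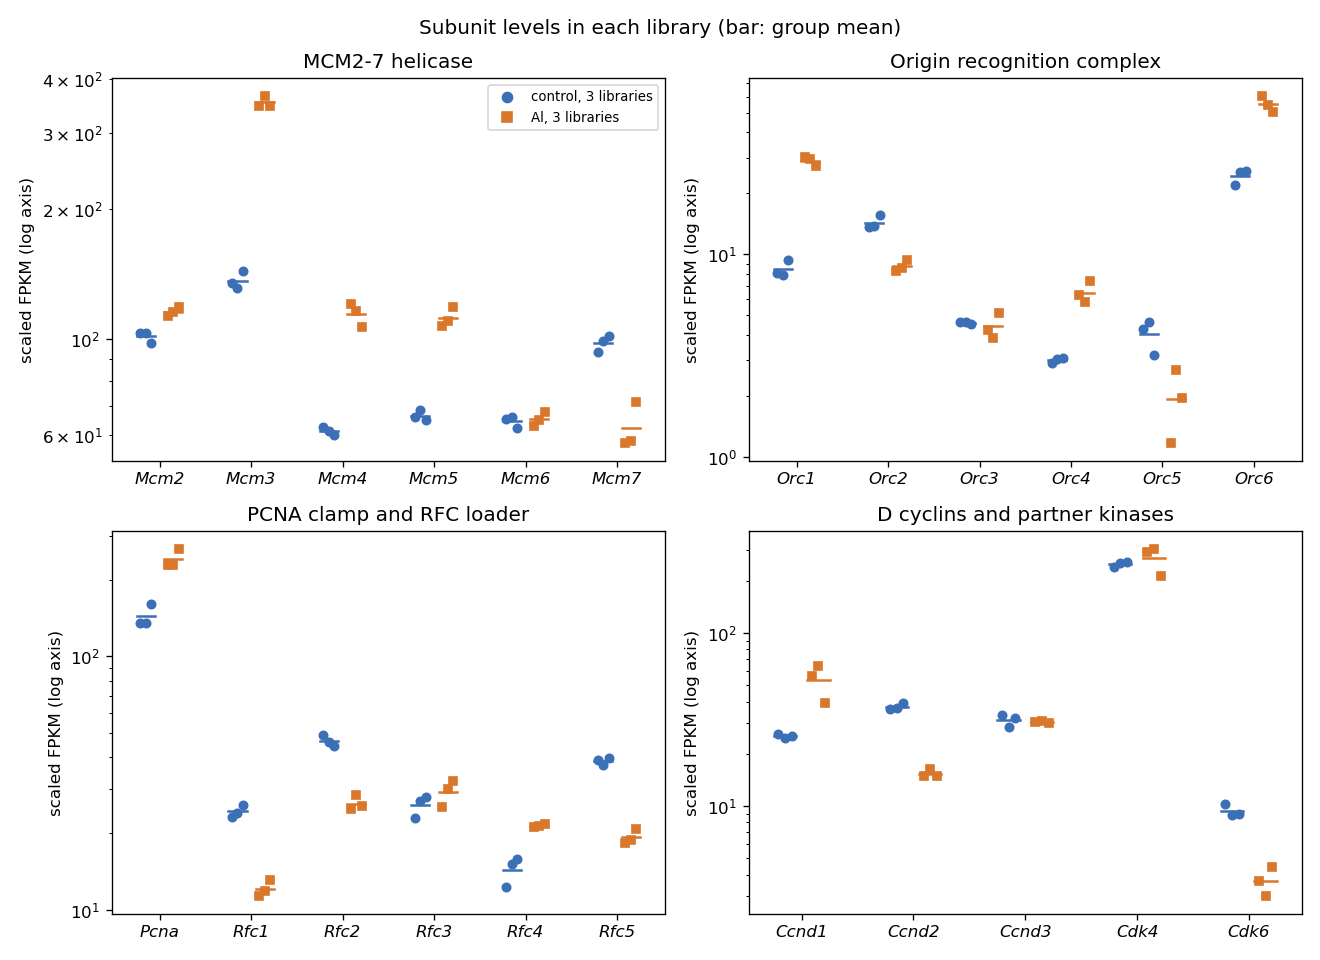
Scaled FPKM on a log axis for the MCM2-7 helicase, the origin recognition complex, the clamp with its loader, and the D cyclins with their kinases, with circles for the 3 control libraries, squares for the 3 Al libraries and bars for group means. Mcm3 lies at 347 to 366 in Al against 131 to 144 in control, while Mcm7 lies at 57.4 to 71.6 against 93.5 to 102.

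The origin recognition complex marks the sites where replication starts, and its large subunit ORC1 is bound and released in the course of the cell cycle. Orc1, Orc6 and Orc4 rose, Orc2 and Orc5 fell, and Orc3 was not called. Orc1 (chr4:108579423-108614833, plus strand) was at a scaled FPKM of 8.05, 7.93 and 9.33 in control and 30.4, 29.4 and 27.3 in Al, a 3.42-fold difference (log2 fold change 1.77 ± 0.11 (SE), limma adjusted P = 8.11e-06). Orc6, a small subunit needed for helicase loading, was at 21.9, 25.6 and 25.8 in control and 60.7, 54.8 and 50.2 in Al (log2 fold change 1.17 ± 0.11 (SE), limma adjusted P = 4.99e-05). In both genes every Al library was above every control library.

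Orc2 and Orc5, subunits of the core of the complex, showed the reverse order. Orc2 was at 13.7, 13.8 and 15.6 in control and 8.29, 8.6 and 9.33 in Al (log2 fold change -0.71 ± 0.11 (SE), limma adjusted P = 5.18e-04). It shares 1150 exon bases on the opposite strand with Nif3l1, which was called higher (log2 fold change 0.81), and whether reads were counted by strand is not given in the sources used here. Orc5 was at 4.27, 4.64 and 3.19 in control and 1.17, 2.69 and 1.95 in Al (log2 fold change -1.08 ± 0.29 (SE), limma adjusted P = 0.010), and had the fewest reads of all members, 26 in Al 1. Orc3 was at 4.64, 4.61 and 4.51 in control and 4.25, 3.85 and 5.1 in Al (log2 fold change -0.068 ± 0.14 (SE), limma adjusted P = 0.69), with overlapping groups. Orc4 was a low gene that rose by a log2 fold change of 1.07.

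CDC6 and CDT1 load the helicase, and geminin (Gmnn) blocks CDT1 once S phase has begun. Among all 59 genes Cdc6 had the largest fold change. Cdc6 (chr11:98907801-98923940, plus strand) was at a scaled FPKM of 12.4, 11.8 and 12.6 in control and 57.6, 51.8 and 50.7 in Al, a 4.32-fold difference (log2 fold change 2.11 ± 0.094 (SE), limma adjusted P = 4.03e-06). Its partner Cdt1 was at 104, 100.1 and 102 in control and 77.7, 89.5 and 123 in Al (log2 fold change -0.10 ± 0.16 (SE), limma adjusted P = 0.597), with Al 3 above and the other two below all control libraries. It was called lower in the other 3 scalings (-0.59, -0.89 and -0.68). Gmnn was at 14.2, 15.9 and 16.1 in control and 22.5, 16.8 and 18.5 in Al (log2 fold change 0.31 ± 0.13 (SE), limma adjusted P = 0.0579), and was not called although its groups did not overlap. The Cdc6 to Cdt1 ratio within a library went from 0.12 ± 0.00324 to 0.577 ± 0.164 (SD, n = 3 each).

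Origin firing joins CDC45 and the 4 GINS proteins to the helicase, with MCM10 needed to activate it. Gins3 and Mcm10 rose and none of the 6 genes was called lower with size factors. Gins3 was at 5.75, 6.19 and 7.63 in control and 15.1, 13.5 and 15.1 in Al (log2 fold change 1.16 ± 0.13 (SE), limma adjusted P = 1.12e-04). Mcm10 was at 6.46, 7.0 and 7.45 in control and 14.2, 15.4 and 14.9 in Al (log2 fold change 1.08 ± 0.10 (SE), limma adjusted P = 5.02e-05). Both were higher in every Al library than in any control library.

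Gins2 was at 46.2, 55.4 and 42.9 in control and 33.7, 34.5 and 29.7 in Al, with all Al libraries below control but a fold change short of the threshold (log2 fold change -0.55 ± 0.12 (SE), limma adjusted P = 0.00384). It was called lower with FPKM as deposited (-1.04), with libraries scaled to the same sum (-1.34) and with quantile normalization (-0.88), and also when control 1, control 3 or Al 2 was left out, at -0.59, -0.64 and -0.59. Gins2 shares 2758 exon bases with Gse1 on the opposite strand. Gins1, with the smallest fold change of the firing genes, was at 7.09, 8.75 and 7.75 in control and 6.88, 7.36 and 7.73 in Al (log2 fold change -0.10 ± 0.12 (SE), limma adjusted P = 0.498). Gins4 and Cdc45 had log2 fold changes of -0.25 and -0.36 and were not called, but both were called lower with FPKM as deposited (-0.73 and -0.85).

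PCNA is the ring that holds polymerases on DNA, and the RFC complex of 1 large and 4 small subunits opens it. Pcna and Rfc4 rose, Rfc1, Rfc2 and Rfc5 fell, and Rfc3 was not called; with libraries scaled to the same sum Pcna and Rfc4 had negative fold changes (-0.038 and -0.20). Pcna, the second most abundant member by control FPKM, was at 136, 136 and 160.3 in control and 229, 230.4 and 266 in Al (log2 fold change 0.75 ± 0.13 (SE), limma adjusted P = 0.00117). It has a processed pseudogene copy, Pcna-ps2, 99.2% identical over 781 bases. All scaled Al values of Pcna were above the highest control value, but as deposited the groups overlapped.

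Rfc1, the large subunit, was at 23.3, 24 and 25.9 in control and 11.3, 11.8 and 13.1 in Al (log2 fold change -1.01 ± 0.10 (SE), limma adjusted P = 5.70e-05). Rfc5 was at 39, 37.4 and 39.8 in control and 18.3, 18.9 and 20.9 in Al (log2 fold change -1.0 ± 0.093 (SE), limma adjusted P = 4.48e-05). Rfc5 has a processed pseudogene copy, Gm12870, 96.2% identical over 1020 bases. It also shares 499 exon bases on the opposite strand with Wsb2. Rfc2 fell by 0.82 on the log2 scale; it shares 952 exon bases on the opposite strand with Lat2, which was called higher (log2 fold change 2.23). Levels of these 3 loader genes were lower in every Al library than in any control library.

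Rfc4 was at 12.2, 15.1 and 15.8 in control and 21.1, 21.5 and 21.8 in Al (log2 fold change 0.58 ± 0.12 (SE), limma adjusted P = 0.00231), at the edge of the fold threshold, and lost its call without control 1 (0.46). Rfc3 was at 23, 26.9 and 27.8 in control and 25.5, 29.9 and 32.2 in Al (log2 fold change 0.17 ± 0.12 (SE), limma adjusted P = 0.242). The Rfc4 to Rfc5 ratio went from 0.372 ± 0.0502 to 1.11 ± 0.0591 (SD, n = 3 each), so that the order of these partner subunits turned over.

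RPA coats single-stranded DNA as a trimer. Rpa2 rose, and neither Rpa1 nor Rpa3 was called. Rpa2 (chr4:132768332-132778752, plus strand) was at a scaled FPKM of 20.3, 21.7 and 20.9 in control and 61.6, 64.6 and 56.6 in Al, a 2.89-fold difference (log2 fold change 1.53 ± 0.093 (SE), limma adjusted P = 8.86e-06). Rpa1, the large subunit, was at 101, 100.1 and 107 in control and 137, 140.4 and 112 in Al (log2 fold change 0.33 ± 0.12 (SE), limma adjusted P = 0.0417). Rpa3, the smallest, was at 13.1, 14.6 and 13.2 in control and 9.56, 7.95 and 10.5 in Al (log2 fold change -0.55 ± 0.12 (SE), limma adjusted P = 0.00462), and it passed the threshold for lower with FPKM as deposited (-1.03), with libraries scaled to the same sum (-1.33) and without control 1, control 3 or Al 3 (-0.59, -0.58 and -0.63).

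The 3 RPA genes thus spread over 2.08 log2 units. Of their summed FPKM, Rpa2 made up 15.3% ± 0.589 in control and 30.5% ± 1.05 in Al (SD, n = 3 each). Rpa3 made up 9.93% ± 0.68 in control and 4.73% ± 1.07 in Al (SD, n = 3 each). Rpa1 remained the largest part, with 74.8% ± 1.27 in control and 64.8% ± 1.95 in Al (SD, n = 3 each).

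Among the polymerase genes, 4 of 8 fell (Pole2, Pola2, Prim1 and Pold1, with 24.4% of tested genes called lower), Pold2 rose with size factors only, and Pola1, Prim2 and Pole were not called. DNA polymerase alpha with primase starts each strand, delta extends the lagging strand and epsilon the leading strand. Pole2 (chr12:69201773-69228195, minus strand), the second subunit of epsilon, had the largest decrease of all members, at 10.1, 9.97 and 9.3 in control and 2.47, 2.68 and 5.81 in Al (log2 fold change -1.50 ± 0.28 (SE), limma adjusted P = 0.00176). Al 3 was about as far from the other Al libraries as from control, and without it the log2 fold change was -1.88.

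Pola2, the accessory subunit of polymerase alpha, was at 35.9, 38.7 and 40.0 in control and 17.8, 21.4 and 23.4 in Al (log2 fold change -0.88 ± 0.12 (SE), limma adjusted P = 2.91e-04). Its catalytic partner Pola1 was at 21, 22.5 and 18.9 in control and 20.7, 21.1 and 19.8 in Al (log2 fold change -0.016 ± 0.10 (SE), limma adjusted P = 0.893), with overlapping groups. Prim1, the catalytic primase subunit, fell by 0.77 on the log2 scale, and Prim2 was at -0.35 without a call. Prim2 was called lower with FPKM as deposited (-0.83) and with libraries scaled to the same sum (-1.13). The groups of Prim1 and Prim2 did not overlap.

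In polymerase delta the catalytic Pold1 was at 31, 31.2 and 33.6 in control and 19.5, 20.6 and 22.9 in Al (log2 fold change -0.60 ± 0.10 (SE), limma adjusted P = 7.97e-04). Its accessory Pold2 was at 41, 39.6 and 42.1 in control and 65.9, 63.8 and 56.8 in Al (log2 fold change 0.60 ± 0.10 (SE), limma adjusted P = 7.99e-04). Both lay close to the fold threshold, and Pold2 was at 0.11 with FPKM as deposited, -0.19 with libraries scaled to the same sum and 0.21 with quantile normalization, with no call. The call of Pold1 was lost without control 3 or Al 1 (-0.58 and -0.55), and that of Pold2 without control 2 or Al 1 (0.56 and 0.56). The Pold2 to Pold1 ratio within a library went from 1.28 ± 0.0369 to 2.99 ± 0.46 (SD, n = 3 each), with no overlap. Pole, the catalytic subunit of epsilon, was at a log2 fold change of -0.48 without a call, and was called lower at -0.97 with FPKM as deposited, -1.27 with the same sum and -0.63 with quantile normalization.

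FEN1 trims the flaps between Okazaki fragments and LIG1 seals them. Fen1 rose and Lig1 was not called. Fen1 (chr19:10199132-10204169, minus strand) was at a scaled FPKM of 56.6, 52 and 57.3 in control and 235, 237 and 173 in Al, a 3.85-fold difference (log2 fold change 1.94 ± 0.14 (SE), limma adjusted P = 1.61e-05). Al 3 was lower than the other Al libraries and still far above control. Fen1 shares 1909 exon bases with the antisense gene Gm10143, which was not analysed here. Lig1 was at 44.5, 41 and 40.9 in control and 37.4, 42.9 and 38.9 in Al (log2 fold change -0.086 ± 0.10 (SE), limma adjusted P = 0.459), with overlapping groups.

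Nucleotides for replication come from ribonucleotide reductase (Rrm1 and Rrm2), thymidylate synthase (Tyms), thymidine kinase (Tk1) and dUTPase (Dut). Tk1, which salvages thymidine and is a known E2F target, fell, and none of the 5 genes was called higher. Tk1 (chr11:117815526-117826092, minus strand) was at 37.9, 35.5 and 44 in control and 13.6, 15.2 and 16.8 in Al (log2 fold change -1.36 ± 0.12 (SE), limma adjusted P = 3.41e-05). The groups were well apart.

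Tyms, which makes the same product from dUMP, was at 13.2, 13.4 and 13.2 in control and 17.3, 18.8 and 16.4 in Al (log2 fold change 0.40 ± 0.095 (SE), limma adjusted P = 0.00608). Rrm1 was at 73.3, 77.4 and 83.2 in control and 114, 122 and 99 in Al (log2 fold change 0.51 ± 0.12 (SE), limma adjusted P = 0.00452). Rrm2 had a log2 fold change of 0.45 with overlapping groups. Without Al 3, Rrm1 and Rrm2 passed the threshold for higher (0.61 and 0.66). The direction of these genes turned with the scaling. With the same sum Rrm1, Rrm2 and Tyms were at -0.27, -0.33 and -0.39. With FPKM as deposited they were at 0.027, -0.034 and -0.088, and with quantile normalization at -0.022, -0.026 and 0.32. Dut was at -0.45 with all Al libraries below control, short of the threshold with size factors but called lower at -0.94 with FPKM as deposited, -1.24 with the same sum and -0.71 with quantile normalization. Uhrf1, which reads hemimethylated DNA behind the fork, was at 91.2, 93.2 and 91.9 in control and 62, 67 and 74.3 in Al (log2 fold change -0.45 ± 0.10 (SE), limma adjusted P = 0.00521). It was called lower in the same 3 scalings (-0.93, -1.23 and -0.97). Uhrf1 has a processed pseudogene copy, Gm5648, 98.3% identical over 1590 bases.

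D cyclins with CDK4 or CDK6 phosphorylate the retinoblastoma proteins in G1. Ccnd1 rose, Ccnd2 and Cdk6 fell, and Ccnd3 and Cdk4 were not called. Ccnd1 missed the fold threshold with FPKM as deposited (0.55) and with libraries scaled to the same sum (0.26). Ccnd1 (chr7:144929931-144939925, minus strand) was at a scaled FPKM of 26.1, 24.6 and 25.1 in control and 56.2, 64.6 and 39 in Al (log2 fold change 1.04 ± 0.17 (SE), limma adjusted P = 8.24e-04). The Al libraries were widely spread but all above control, and 1100 exon bases are shared with LTO1 on the opposite strand. Ccnd2 (chr6:127125162-127152193, minus strand) was at 36.3, 36.6 and 39 in control and 14.8, 16.4 and 14.8 in Al (log2 fold change -1.28 ± 0.093 (SE), limma adjusted P = 1.58e-05).

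Of the summed FPKM of the 3 D cyclins, Ccnd1 made up 27% ± 0.715 in control and 53.2% ± 5.93 in Al (SD, n = 3 each). Ccnd2 made up 39.7% ± 1.63 in control and 15.6% ± 1.72 in Al (SD, n = 3 each). Ccnd2 was thus the leading D cyclin RNA in control and the least in Al. Ccnd3 was at 33.4, 28.4 and 32.1 in control and 30.5, 30.7 and 30.1 in Al (log2 fold change -0.038 ± 0.10 (SE), limma adjusted P = 0.744), with overlapping groups.

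Cdk6 was at 10.3, 8.81 and 8.99 in control and 3.68, 3.0 and 4.41 in Al (log2 fold change -1.33 ± 0.16 (SE), limma adjusted P = 1.47e-04). Cdk4, the most abundant of the 59 genes by control FPKM, was at 240.3, 251 and 256 in control and 292, 305 and 213 in Al (log2 fold change 0.10 ± 0.16 (SE), limma adjusted P = 0.617). Al 3 lay below all control libraries in Cdk4 and the other Al libraries above them, and Cdk4 was called lower with libraries scaled to the same sum (-0.69) and with quantile normalization (-0.63). Cdk4 shares 641 exon bases on the opposite strand with Tspan31.

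E cyclins with CDK2 act after the D cyclins, and none of the 3 genes was called with size factors. Ccne1 was called lower with FPKM as deposited (-0.88), and Ccne1, Ccne2 and Cdk2 were called lower with libraries scaled to the same sum (-1.18, -0.77 and -0.86). Ccne2 was at 3.4, 4.18 and 4.4 in control and 3.21, 4.14 and 4.66 in Al (log2 fold change -0.0057 ± 0.18 (SE), limma adjusted P = 0.98). Ccne1 had a log2 fold change of -0.40 ± 0.15 (SE) with Al wholly below control, and Cdk2 of -0.074 ± 0.089 (SE) with overlapping groups. With size factors the 3 genes spread over 0.395 log2 units, the narrowest range among role groups of 3 or more.

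Of the E2F factors, the activators E2f1, E2f2 and E2f3 were not called and the atypical repressor E2f7 rose. E2f1 was called lower with FPKM as deposited (-0.83) and with libraries scaled to the same sum (-1.13). E2f7 was at 0.34 with the same sum and not called. With quantile normalization E2f2 was called higher (0.59). E2f7 was at 11, 10.5 and 11.4 in control and 24.5, 23.6 and 23.8 in Al (log2 fold change 1.12 ± 0.090 (SE), limma adjusted P = 2.36e-05). Its relative E2f8 was at 11.4, 11.1 and 13 in control and 15.8, 18 and 16.5 in Al (log2 fold change 0.50 ± 0.11 (SE), limma adjusted P = 0.00343), with Al wholly above control and the fold short of the threshold. Both act against E2F targets late in S phase.

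E2f2, a low gene, was at 3.1, 2.75 and 3.31 in control and 2.47, 4.16 and 5.05 in Al (log2 fold change 0.29 ± 0.25 (SE), limma adjusted P = 0.336). E2f1 and E2f3 had log2 fold changes of -0.34 ± 0.089 (SE) and 0.46 ± 0.14 (SE), short of the threshold with size factors. E2f3 was at -0.026 with FPKM as deposited and -0.32 with the same sum, the sign of E2f1, and at 0.57 with quantile normalization. In E2f2 the Al libraries lay on both sides of the control libraries.

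Ratios within a library do not depend on how libraries are scaled to each other. For 9 pairs of partner genes, chosen after the values were seen, no control ratio overlapped an Al ratio. The Mcm3 to Mcm7 ratio went from 1.39 ± 0.0604 to 5.74 ± 0.789 and the Orc1 to Orc2 ratio from 0.588 ± 0.0116 to 3.34 ± 0.38 (SD, n = 3 each). Rpa2 to Rpa3 went from 1.54 ± 0.0454 to 6.66 ± 1.37, Fen1 to Lig1 from 1.31 ± 0.0756 to 5.43 ± 0.912 and Ccnd1 to Ccnd2 from 0.679 ± 0.0382 to 3.46 ± 0.71. In the 5 pairs given here the first gene exceeded the second in every Al library, and no test was run because the pairs were picked for their contrast.

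**Figure D3:**
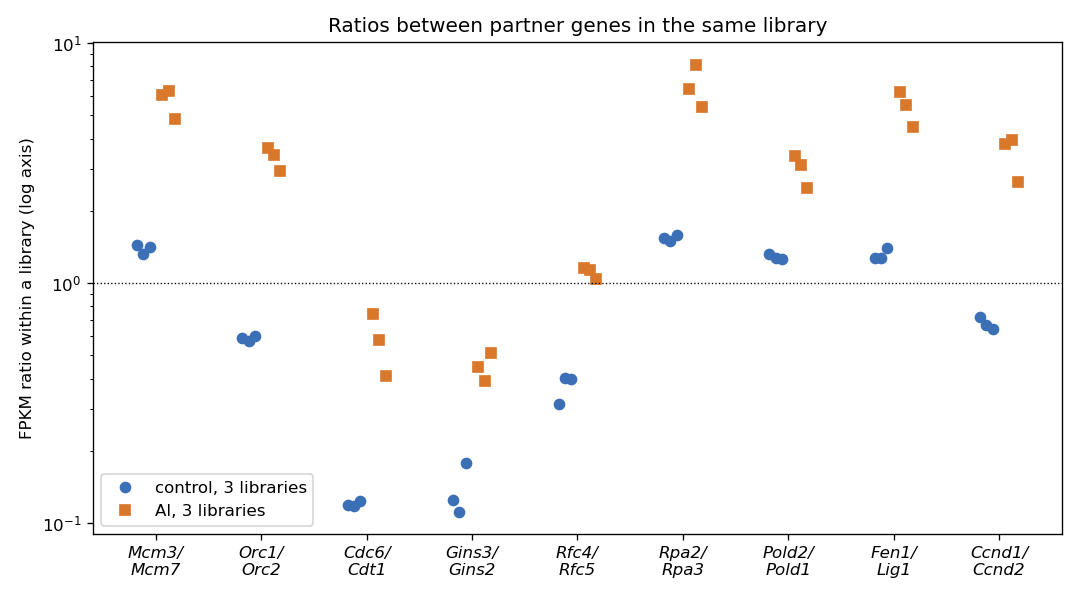
Ratio of FPKM between partner genes in the same library, on a log axis with a dotted line at 1, for 9 pairs chosen after the values were seen (circles, 3 control libraries; squares, 3 Al libraries). In each pair all Al ratios lie above all control ratios, as for Mcm3 to Mcm7 with group means of 1.39 and 5.74.

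How libraries are scaled sets the level at which a fold change counts as none. Against the size factors, the median of all tested genes shifted by -0.46 with FPKM as deposited, by -0.75 with libraries scaled to the same sum and by -0.06 with quantile normalization. The first pair of these moves every gene by nearly the same amount, so a gene's place relative to that median hardly changes under them. With quantile normalization, all 16 genes called higher were above and all 13 called lower were below the median of tested genes. Of the called genes, Mcm5, Pcna, Rfc4 and Pold2 changed sign when libraries were scaled to the same sum. In absolute calls, 5 members were higher in all 4 scalings (Cdc6, Fen1, Mcm3, Orc1 and Rpa2, background 8.74%) and 13 were lower (background 20.4%). These 5 genes and 7 of the lower genes (Ccnd2, Cdk6, Orc5, Pole2, Rfc1, Rfc5 and Tk1) kept their call in each of the 22 alternative settings tried. Of the 10349 genes tested in every setting, 6.75% were called higher and 13.9% lower throughout.

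The summed scaled FPKM of the 59 genes was 2345 ± 55.9 in control and 2991 ± 104 in Al (SD, n = 3 each). As a share of all FPKM as deposited the same sum was 0.742% ± 0.0109 and 0.551% ± 0.0669, so that the direction of the total turns with the scaling. The rank order of the members by mean level was much the same in both groups (Spearman's rho 0.848 across the 59 genes, which are not independent replicates). Fold changes of members showed little relation to GC content or transcript length across genes (rho -0.0099 and 0.052). Over the 12355 tested genes with these values rho was 0.0275 for GC content and -0.146 for length.

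**Figure D4:**
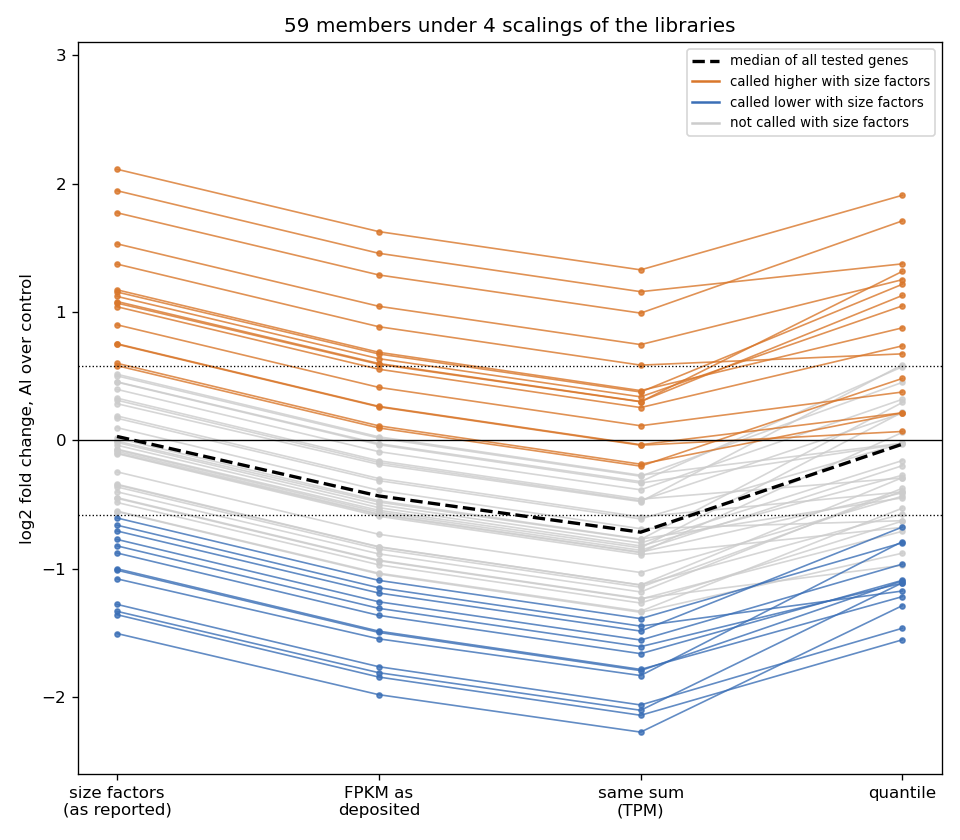
Log2 fold change of each of the 59 genes under 4 scalings of the libraries, with lines coloured by the call made with size factors, a dashed line for the median of all 12889 tested genes and dotted lines at ± 0.58. With FPKM as deposited and with libraries scaled to the same sum the genes shift about as much as the median of tested genes, whereas with quantile normalization the median of the 59 genes is at -0.27 and that of tested genes at -0.03.

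A further 55 genes of replication and the G1/S transition outside the 59 were read from the same fit. E2f6 was listed at 0 and not tested, and of the other 54, 16 were called higher (29.6%, background 26.2%), 11 lower (20.4%, background 24.4%) and 27 not called, with a median log2 fold change of 0.09. With FPKM as deposited 4 were higher and 22 lower (backgrounds 14.0% and 42.0%), and with libraries scaled to the same sum 4 and 32 (9.31% and 53.1%). The 5 largest increases were in Atad5, which unloads PCNA (1.67 ± 0.093 (SE)), Ticrr, which helps origins to fire (1.59 ± 0.11 (SE)), Fbxo5, an inhibitor of the anaphase-promoting complex (1.40 ± 0.13 (SE)), the epsilon subunit Pole3 (1.38 ± 0.21 (SE)) and Skp2, a ubiquitin ligase subunit of the G1/S transition (1.05 ± 0.090 (SE)). Of these, Skp2 lost its call with FPKM as deposited (0.56) and with the same sum (0.27). The 5 largest decreases were in Rbl2 (-1.73 ± 0.27 (SE)), Rrm2b, a p53-regulated subunit of ribonucleotide reductase (-1.72 ± 0.31 (SE)), Rb1 (-1.46 ± 0.18 (SE)), Tfdp2, a partner of E2F proteins (-1.44 ± 0.18 (SE)), and Rbl1 (-1.36 ± 0.15 (SE)).

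Rb1, Rbl1 and Rbl2 encode the 3 retinoblastoma proteins that hold E2F factors in check. Rb1 was at 5.46, 5.68 and 5.13 in control and 1.52, 1.96 and 2.33 in Al (limma adjusted P = 1.55e-04). Rbl1 was at 11.2, 11 and 10.6 in control and 3.5, 4.04 and 5.19 in Al (limma adjusted P = 1.09e-04), and Rbl2 at 7.3, 7.82 and 7.6 in control and 1.57, 1.87 and 3.63 in Al (limma adjusted P = 6.33e-04). All 3 were lower in every Al library and were called lower in each of the 4 scalings.

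For comparison, 5 of 20 genes of mitosis were called higher (25%, background 26.2%) and 1 lower (Ccnb2, background 24.4%), with a median log2 fold change of 0.40, whereas with FPKM as deposited 1 was called higher and 3 lower (backgrounds 14.0% and 42.0%). Of 7 listed CDK inhibitors 4 were tested, and Cdkn1a (p21, which binds CDK2 and PCNA) was called higher at 90.8, 88.5 and 129 in control and 320.2, 383 and 240.2 in Al (log2 fold change 1.61 ± 0.21 (SE), limma adjusted P = 2.38e-04). Cdkn2c was also called higher, at 0.68 ± 0.16 (SE), but not in the other scalings. It was at 0.20 with FPKM as deposited, 0.13 with quantile normalization and -0.10, the opposite sign, with libraries scaled to the same sum. Cdkn1c, Cdkn2a and Cdkn2b were listed at 0 in all 6 libraries.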

How the data were processed

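RNA of HT22 cells was read from 6 input libraries (3 control, 3 Al) as FPKM. The study's methods name Trimmomatic, SortMeRNA, HISAT2 and GRCm38/mm10, whereas the submitters' processing notes name fastp, HISAT2, HTSeq and GRCm39 and the design text names another genome. The annotation behind the FPKM values that the authors deposited, and whether reads were counted by strand, are not given in the sources used here. The immunoprecipitated libraries and m6A peaks were not analysed here.

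The 59 members, the gene lists, the tests and the alternatives were chosen with earlier results of these data known. Each FPKM value is a whole number of reads times a step set by gene and library, and these reads were recovered for 17688 of 17688 genes above 0 (tolerance 0.001 reads). Size factors were medians of ratios, taken over genes that were above 0 everywhere and averaged at least 1 FPKM. log2(FPKM / size factor + 0.1) was fitted with limma 3.58.1 in R 4.3.3 (lmFit, eBayes with trend, two-sided) for the 12889 genes that averaged at least 0.1 FPKM. A call needed P under 0.05 before adjustment and a log2 fold change beyond 0.58 in either direction, as in the study, and P was adjusted by Benjamini-Hochberg across the tested genes. The pseudocount understates changes of low genes. The P values measure the spread between 3 libraries a group, which may be technical. An exact permutation of 3 against 3 cannot go below P = 0.1 and was not used.

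Values per library were given for up to 2 members called higher, up to 2 called lower and 1 not called in each role group, and for the 10 with the highest control FPKM; others were added after their values were seen. Of the other pathway genes the 5 highest and 5 lowest were named. Promoters came from RefSeq (GRCm38.p6), gene positions, GC content and lengths from GENCODE on GRCm38, and copies (at least 95% identity over 300 bases) from minimap2 2.31-r1302. Of the members, 5 had a pseudogene copy (Mcm7, Pcna, Rfc5, Rrm2 and Uhrf1) and 23 shared exon bases with a gene on the opposite strand. Python 3.11.15, numpy 2.4.6, pandas 2.3.3 and scipy 1.17.1 were used, and the recovery and the fit were tested on simulated data.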

Additional observations from a re-analysis of the deposited data

How the results depend on the processing

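The scaling between libraries moved the counts most. With FPKM as deposited the members called were 10 higher and 24 lower, the other pathway genes 4 higher and 22 lower, the mitosis list 1 higher and 3 lower, the CDK inhibitors 1 higher and 1 lower and all genes 1805 higher and 5417 lower. With libraries scaled to the same sum they were 5 higher and 35 lower, 4 higher and 32 lower, 0 higher and 6 lower, 1 higher and 2 lower and 1200 higher and 6843 lower, in the same order. With quantile normalization the mitosis list had 2 higher and 3 lower and 1 CDK inhibitor was higher. With calls at an adjusted P under 0.05 and a log2 change over 1 in size, 2028 genes were higher and 1784 lower, with 11 members higher and 7 lower, 6 other pathway genes higher and 5 lower, 1 mitosis gene higher and 1 CDK inhibitor higher. Centring by transcript length, an alternative added after seeing the data, left 1 CDK inhibitor higher and the members at 15 higher and 14 lower, with calls lost by Rfc4 (0.38) and Pold2 (0.49) and gained by Rpa3 (-0.99) and E2f3 (0.61). All genes were 3312 higher and 3111 lower (25.7% and 24.1%). Centring by GC content gave 17 higher and 12 lower, with Pold1 lost (-0.53) and Rrm1 gained (0.63) and all genes at 3394 higher and 3132 lower (26.3% and 24.3%). The cause of these shifts was not tested.

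Signs changed in the following genes, of which Mcm5, Pcna, Rfc4 and Pold2 were called with size factors. With FPKM as deposited they were Mcm2 -0.30, Mcm6 -0.47, Gmnn -0.17, Rfc3 -0.31, Rpa1 -0.16, Rrm2 -0.034, Tyms -0.088, Cdk4 -0.39, E2f2 -0.19 and E2f3 -0.026. Scaled to the same sum they were Mcm2 -0.60, Mcm5 -0.034, Mcm6 -0.77, Gmnn -0.47, Pcna -0.0382, Rfc3 -0.61, Rfc4 -0.20, Rpa1 -0.46, Pold2 -0.19, Rrm1 -0.27, Rrm2 -0.33, Tyms -0.39, Cdk4 -0.69, E2f2 -0.48, E2f3 -0.32 and E2f8 -0.28. With quantile normalization they were Mcm2 -0.40, Mcm6 -0.45, Orc3 0.22, Gins1 0.0627, Rfc3 -0.0221, Rpa1 -0.29, Rrm1 -0.022, Rrm2 -0.0264, Ccne2 0.30 and Cdk4 -0.63. GC-bin centring, with or without the replicate block, gave Pola1 0.00529, Ccne2 0.0512 and Ccnd3 0.0552, and length-bin centring Rfc3 -0.0248 and Pola1 0.13. Leaving out 1 library gave Mcm6 -0.0201 to 0.046, Orc3 -0.17 to 0.0293, Cdt1 -0.28 to 0.0447, Pola1 -0.0938 to 0.0289 and Ccne2 -0.12 to 0.15. Over those 6 fits the members called were 15 to 18 higher and 12 to 15 lower, CDK inhibitors 1 to 2 higher (1 without Al 1) and all genes 3197 to 3468 and 2962 to 3295.

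Replicate numbers did not pair the libraries (correlations of same-numbered deviations -0.033, -0.026 and -0.073), and with the replicate block the members called were 16 higher and 13 lower and all genes 3352 higher and 3123 lower, with no member's call changed. Both pseudocounts, both filters, the fit without trend, the adjusted P at the same fold, thinning to the smallest library and limma voom on recovered reads changed no member's call except that of Rfc4, lost at a pseudocount of 1 (0.55) and under voom (0.58; the cause was not tested). Intervals from read counts cover counting error only.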
